A study of Mus musculus with 8 samples.

Results

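The genes described here handle iron and heme in cultured fat cells exposed to asbestos. They are 10 genes chosen by name: Hmox1, Tfrc, Fth1, Ftl1, Slc40a1, Slc11a2, Steap1, Steap4, Ireb2 and Cp. Every non-control probe carrying one of these names was used, which gave 16 probes among 55672, and 10 genes among 35075 on the array. All 16 probes were well above background on all 8 arrays, so none of the genes entered only because it was high in 1 group.

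Iron enters most cells bound to transferrin, is taken in by the transferrin receptor, is reduced and moved out of the endosome, and is then used, stored in ferritin or exported through ferroportin. Iron regulatory proteins bind stem-loops in the messages for the receptor and for ferritin, so that low iron stabilises the receptor message and blocks ferritin translation. Heme oxygenase 1 opens the heme ring and frees its iron, and its gene is a classical target of oxidative stress. Asbestos fibres carry iron of their own, as a main component of the amphiboles crocidolite and amosite and as a minor one of the serpentine chrysotile.

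The cells were adipocytes differentiated in culture from 3T3-L1, an established line of mouse preadipocytes, so all groups share 1 line. They received crocidolite, amosite or chrysotile at a labelled 10 mg/cm2, or physiological saline, and RNA was taken after 72 hours. Each of the 4 groups had 2 arrays, numbered 1 and 2 in the labels. The labels do not state whether the numbered samples came from separate cultures. A p-value here is therefore set against a spread between arrays that could be technical alone.

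Values are Agilent 1-colour intensities on a log2 scale, with the 75th percentile of each array set to 0; a centred value of 1 lies 2-fold above that percentile. Differences are the first group minus the second, ± SE, from 1 limma fit to 23052 genes over all 8 arrays, and the adjusted p (Benjamini-Hochberg, two-sided, threshold 0.05) runs over all of them. A gene is read from its brightest probe unless another is named. Where same-numbered arrays are taken as pairs, the fit is called the replicate block. The number of arrays limits the precision. All 10 adipocyte markers, among them Adipoq, Fabp4 and Plin1, were above background on every array. So were all 7 preadipocyte and fibroblast markers, among them Dlk1 (mean centred value 7.62) and Col1a1 (7.66). In linear units of the 75th percentile these 7 summed to 423 to 534 on crocidolite and 444 to 549 on amosite arrays. The sums were 437 to 590 on chrysotile and 484 to 509 on saline arrays. Macrophage markers summed to 60.1 to 67.6 on crocidolite arrays, 61.4 to 65.5 on amosite arrays, 64.2 to 73.6 on chrysotile arrays and 65.9 to 73.0 on saline arrays (linear units of the 75th percentile, 10 markers, of which 4 to 7 were above background), and Mrc1, Cd163 and Lyz2 were above background on none. Itgam, Csf1r, Cd68 and Mpeg1 were above background on all 8 arrays. Itgam made up most of the sum, at 53.4 to 59.9 on crocidolite, 56.0 to 58.3 on amosite, 57.7 to 65.7 on chrysotile and 57.4 to 65.0 on saline arrays. The part of these markers in the results was not tested. These are bulk samples, in which fewer cells of a type and less RNA per cell cannot be told apart.

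Hmox1, Tfrc and Steap4 did not divide the fibres into amphiboles and chrysotile. Their group means on the brightest probe put crocidolite and amosite on opposite sides of chrysotile, while Steap1 put both below it. By group mean, crocidolite and chrysotile stood on the same side of saline for Hmox1, Steap1, Steap4 and Cp (higher) and for Tfrc (lower). Amosite means lay near saline for Hmox1, Tfrc and Steap4. On the brightest probe the arrays overlapped saline for Hmox1 with crocidolite and chrysotile, and for Cp with chrysotile. On their brightest probes the ferritin genes, Slc11a2 and Ireb2 differed from saline by at most 0.18 in any fibre. Dimmer probes reached 0.23 for Ftl1 (chrysotile) and -0.25 for Slc11a2 (crocidolite). None of the 10 genes passed the adjusted threshold in any of the 5 comparisons in the fit without pairing, and none did with the replicate block. Limma also called 0 of the 23052 genes (0%) in each comparison, with 616 to 1675 at an unadjusted p under 0.05.

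**Figure D1:**
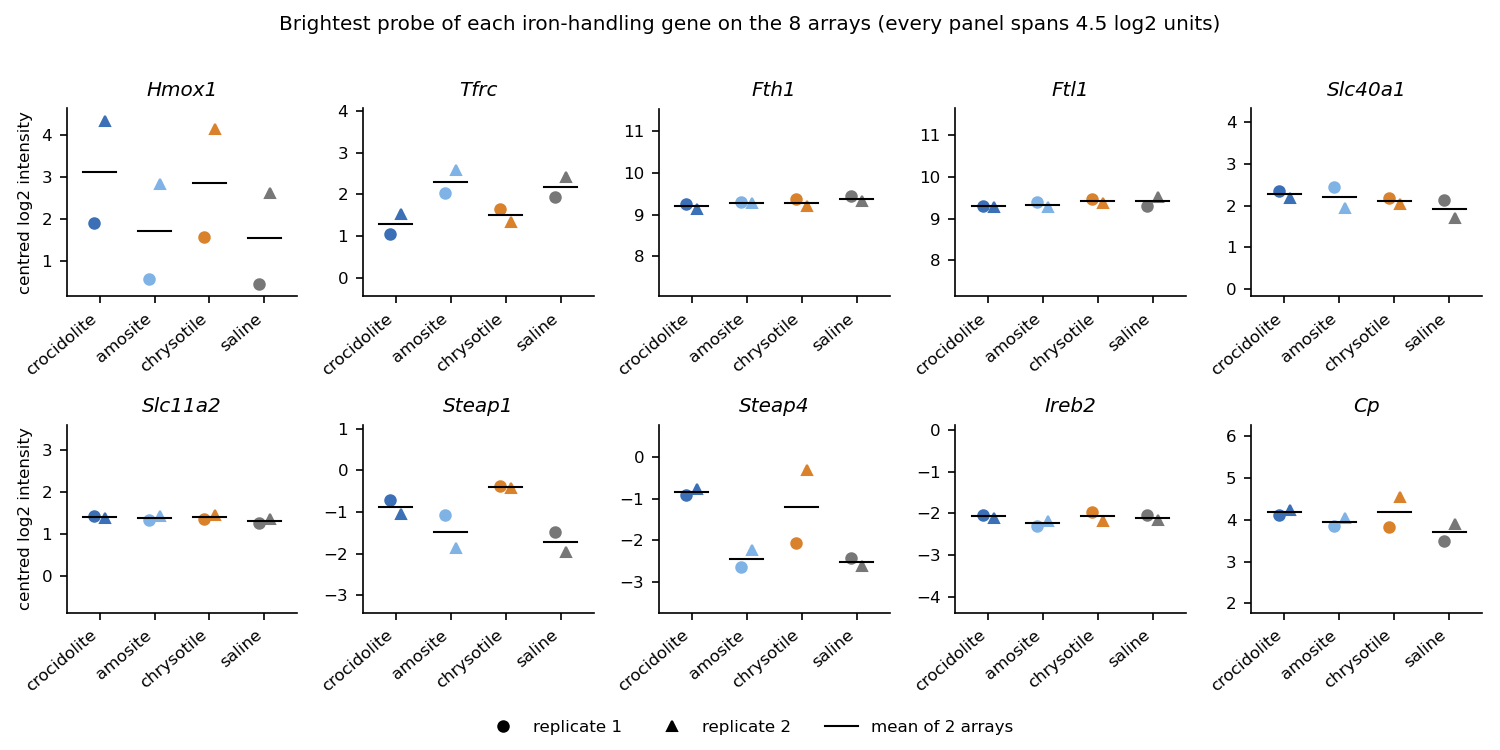
Centred log2 intensity (y axis) of the brightest probe of each of the 10 genes on the 2 arrays of crocidolite, amosite, chrysotile and saline (x axis). Circles are replicate 1, triangles replicate 2 and bars the mean of the 2 arrays, and each panel spans 4.5 log2 units. Hmox1 replicate 2 lies above replicate 1 by 2.18 to 2.59 in every group, while Fth1 and Ftl1 stay between 9.15 and 9.51.

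Hmox1, which encodes heme oxygenase 1, was split mainly by replicate number and then by fibre. Its brighter probe (mm9 chr8:77624207-77624266) read 1.90 and 4.34 on the crocidolite arrays, 0.55 and 2.85 on the amosite arrays, 1.56 and 4.15 on the chrysotile arrays, and 0.45 and 2.63 on the saline arrays, replicate 1 first. The second array was higher in all 4 groups, by 2.44 in crocidolite, 2.29 in amosite, 2.59 in chrysotile and 2.18 in saline. This mean gap of 2.38 is exceeded by only 3 of the 23052 genes tested. Every group therefore overlaps every other, although within each number the order of the groups is the same: crocidolite, chrysotile, amosite, saline.

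The group means were 3.12 ± 1.73 for crocidolite, 1.70 ± 1.62 for amosite, 2.86 ± 1.83 for chrysotile and 1.54 ± 1.54 for saline (SD, n = 2 each). Crocidolite exceeded saline by 1.58 ± 1.35, or 2.99-fold (limma adjusted p = 0.84), with 1.45 in the replicate 1 pair and 1.71 in the replicate 2 pair. For chrysotile the difference was 1.32 ± 1.35, or 2.49-fold (adjusted p = 0.94), with 1.11 and 1.53 in the pairs. Amosite differed from saline by 0.16 ± 1.35 (adjusted p = 1.00), with 0.10 and 0.22 in the pairs. Leaving out 1 array moved these differences to between 0.36 and 2.80 for crocidolite, -0.99 and 1.31 for amosite, and 0.02 and 2.61 for chrysotile, with the extremes for each fibre without its own replicate 2 and replicate 1.

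Taking the numbers as pairs leaves the differences as they are and shrinks the SE to 0.13. With the replicate block the unadjusted limma p was 5.3e-05 for crocidolite, 0.00013 for chrysotile and 0.26 for amosite, all against saline, and the adjusted p was 0.28, 0.21 and 1.00. Crocidolite exceeded amosite by 1.42 ± 1.35 without the block (95% interval -1.86 to 4.70, limma adjusted p = 0.996). With the block the interval was 1.09 to 1.74 (limma adjusted p = 0.43). Leaving 1 array out of the unpaired fit gave 0.20 to 2.64. By group mean the averaged amphiboles therefore join a higher and a lower group, whose arrays overlap. A fit added after seeing the data, with the block and a trended, robust prior, called Hmox1 for crocidolite (adjusted p = 0.029) and for chrysotile (adjusted p = 0.026). The slide position of each array is coded by 2 indices, and the first equals the replicate number. Replicate number and this part of the slide position therefore cannot be told apart. The second index is shared by the 2 arrays of each group alone, so group and that part of the position cannot be told apart either. Which index is the row and which the column was not checked.

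The dimmer Hmox1 probe (mm9 chr8:77620797-77620856) lies upstream along the listed strand and gave a smaller gap between the numbers. Its oligonucleotide is shown because both probes carry the gene's name but differ in this respect:

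Hmox1 dimmer probe: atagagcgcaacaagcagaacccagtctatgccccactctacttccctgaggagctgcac

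It read 0.04 and 1.35 in crocidolite, -0.55 and 0.08 in amosite, -0.24 and 1.14 in chrysotile, and -0.40 and -0.15 in saline. The second array was higher by 1.31, 0.63, 1.39 and 0.25 in these groups. On this probe the crocidolite arrays do not overlap the saline arrays, and the chrysotile arrays do. The order of the group means was the same as on the brighter probe, with crocidolite at 0.69 ± 0.92, amosite at -0.24 ± 0.44, chrysotile at 0.45 ± 0.98 and saline at -0.28 ± 0.18 (SD, n = 2 each). The difference from saline was 0.97 ± 0.58 for crocidolite, 0.04 ± 0.58 for amosite and 0.73 ± 0.58 for chrysotile, with limma adjusted p over all 33042 probes of 0.79, 1.00 and 0.97. The brighter probe exceeded the dimmer by 0.86 to 1.86 on the 4 replicate 1 arrays and by 2.77 to 3.01 on the 4 replicate 2 arrays, so the probes disagree on how far the numbered arrays differ.

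**Figure D2:**
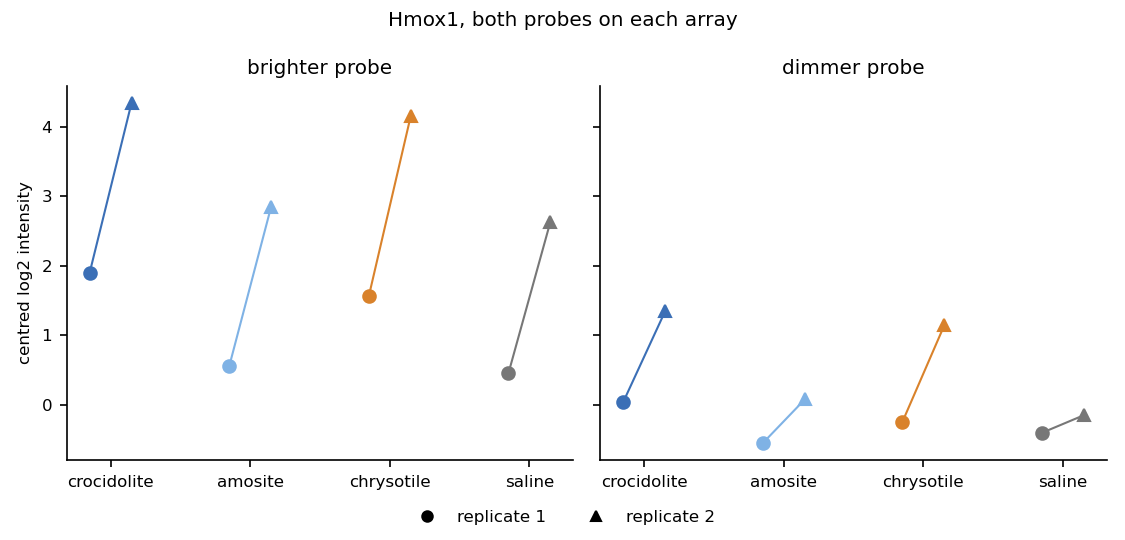
Centred log2 intensity (y axis) of the brighter (left) and dimmer (right) Hmox1 probe in crocidolite, amosite, chrysotile and saline (x axis). Lines join the 2 arrays of a group, with replicate 1 as a circle and replicate 2 as a triangle. The lines climb by 2.18 to 2.59 on the brighter probe and by 0.25 to 1.39 on the dimmer one, and crocidolite and chrysotile sit above amosite and saline within each number.

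Tfrc encodes the transferrin receptor, the main entry route for transferrin-bound iron. Its brightest probe (mm9 chr16:32632255-32632314), printed 10 times on each array, read 1.05 and 1.54 in crocidolite, 2.03 and 2.57 in amosite, 1.64 and 1.35 in chrysotile, and 1.94 and 2.42 in saline. Both crocidolite arrays and both chrysotile arrays lie below all amosite and saline arrays. The coefficient of variation among the 10 spots of an array was 3.11% to 6.65%, so the spotting error is small beside these differences.

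Means were 1.29 ± 0.35 for crocidolite, 2.30 ± 0.39 for amosite, 1.50 ± 0.20 for chrysotile and 2.18 ± 0.34 for saline (SD, n = 2 each). Crocidolite lay below saline by a log2 difference of -0.88 ± 0.28, or 1.85-fold (limma adjusted p = 0.63), with -0.90 and -0.87 in the 2 pairs. Chrysotile lay below it by -0.68 ± 0.28, or 1.61-fold (limma adjusted p = 0.90), with -0.30 and -1.06 in the pairs. Amosite differed from saline by 0.12 ± 0.28, with a 95% interval of -0.56 to 0.80. The crocidolite-amosite difference was -1.01 ± 0.28 (limma adjusted p = 0.88), or 2.01-fold lower in crocidolite.

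Tfrc was read by 2 further probes, whose oligonucleotides are shown because they sample separate stretches of the gene and both put crocidolite and chrysotile below amosite and saline, although the dimmest puts chrysotile lowest. The first is contiguous on the genome (mm9 chr16:32620470-32620529), and the 60 bases of the second are listed over a longer interval (chr16:32624877-32625093), so it spans a break:

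Tfrc middle probe: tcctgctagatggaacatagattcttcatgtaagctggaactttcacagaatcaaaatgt

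Tfrc dimmest probe: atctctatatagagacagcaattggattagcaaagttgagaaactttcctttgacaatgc

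The middle probe read -0.12 and 0.60 in crocidolite, 0.89 and 1.28 in amosite, 0.30 and 0.35 in chrysotile, and 0.93 and 0.98 in saline. The dimmest read -2.63 and -2.31 in crocidolite, -2.00 and -1.89 in amosite, -2.57 and -2.70 in chrysotile, and -1.89 and -2.07 in saline. On all 3 probes the crocidolite and chrysotile arrays lie below every saline array, and the differences from saline were -0.49 to -0.88 for crocidolite, 0.03 to 0.13 for amosite and -0.63 to -0.68 for chrysotile. The smallest adjusted p of any Tfrc probe in these comparisons was 0.67 in limma over all probes without the block, and the probes share their arrays and are not replicates.

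**Figure D3:**
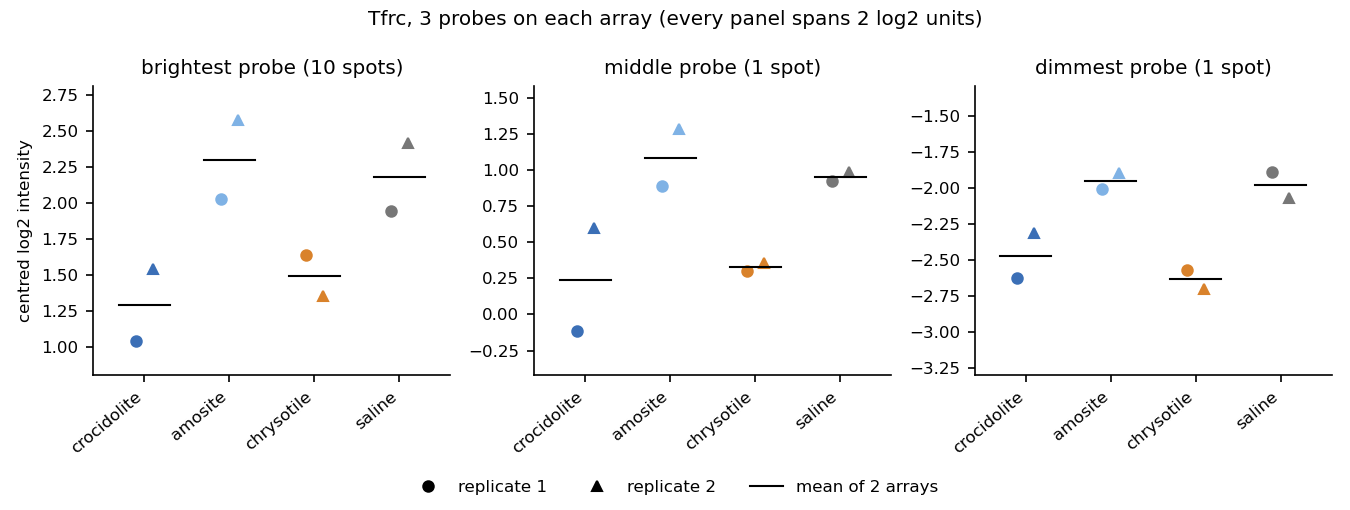
Centred log2 intensity (y axis) of the 3 Tfrc probes in crocidolite, amosite, chrysotile and saline (x axis). Circles are replicate 1, triangles replicate 2, bars the mean of the 2 arrays, and each panel spans 2 log2 units. In each panel both crocidolite and both chrysotile arrays sit below the amosite and saline arrays.

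Slc11a2, which encodes the divalent metal transporter that carries iron across the endosomal membrane, stayed in a narrow range. Its brighter probe (mm9 chr15:100218333-100218392) read 1.43 and 1.38 in crocidolite, 1.33 and 1.44 in amosite, 1.35 and 1.45 in chrysotile, and 1.27 and 1.36 in saline. The differences from saline were 0.09 ± 0.11 for crocidolite, 0.07 ± 0.11 for amosite and 0.09 ± 0.11 for chrysotile, and the widest of their 95% intervals reaches 0.36. The dimmer probe (chr15:100240516-100240575) ran the other way, with -1.99 and -2.10 in crocidolite, -2.03 and -2.05 in amosite, -2.01 and -2.00 in chrysotile, and -1.80 and -1.80 in saline. All 6 fibre arrays lie below both saline arrays there, by -0.25, -0.24 and -0.21 ± 0.11 for crocidolite, amosite and chrysotile, with the smallest limma adjusted p at 0.75 over all probes. The gap between the probes was 3.35 to 3.49 on the fibre arrays and 3.07 to 3.16 on the saline arrays. The ratio between the probes therefore differs, and the array does not say which of them tracks the gene.

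Steap1 and Steap4 belong to the STEAP family of membrane proteins, whose metalloreductase members turn ferric into ferrous iron. STEAP4 was described in fat cells as a protein induced by tumour necrosis factor, and STEAP1 lacks the family's own reductase domain.

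Steap1 (mm9 chr5:5736369-5736428) was the gene with the clearest chrysotile level. It read -0.71 and -1.04 in crocidolite, -1.07 and -1.87 in amosite, -0.37 and -0.41 in chrysotile, and -1.47 and -1.96 in saline. The chrysotile arrays are above all others, the crocidolite arrays are above the amosite and saline arrays, and amosite overlaps saline. Chrysotile exceeded saline by 1.33 ± 0.30, or 2.51-fold (limma adjusted p = 0.88), with 1.11 and 1.55 in the pairs. Crocidolite exceeded saline by 0.84 ± 0.30, or 1.79-fold (limma adjusted p = 0.67), and amosite by 0.25 ± 0.30 (adjusted p = 1.00). The averaged amphiboles lay below chrysotile by -0.78 ± 0.26, or 1.72-fold (limma adjusted p = 1.00), with -0.53 and -1.04 in the pairs.

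Steap4 (mm9 chr5:7981239-7981298) read -0.90 and -0.76 in crocidolite, -2.64 and -2.22 in amosite, -2.06 and -0.32 in chrysotile, and -2.42 and -2.61 in saline. Crocidolite is high on both arrays, amosite is at the saline level, and chrysotile is near saline on its first array and the highest of all 8 on its second. Crocidolite exceeded saline by 1.68 ± 0.52, or 3.20-fold (limma adjusted p = 0.62), with 1.51 and 1.85 in the pairs. It exceeded amosite by 1.60 ± 0.52, or 3.04-fold (limma adjusted p = 0.88). The chrysotile difference of 1.32 ± 0.52 (limma adjusted p = 0.90) joins pairs of 0.36 and 2.29, and was 0.45 without chrysotile replicate 2.

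The 250 bases before the listed start of Steap4 and of Steap1 are shown because these genes, with Hmox1, lay furthest above saline, and they share a family but not these motifs. Sequences are RefSeq's on GRCm38.p6, written 5′ to 3′ on the gene's strand. Capitals mark matches, on either strand, to any of 5 motifs: the STAT motif TTCNNNGAA, the C/EBP motif TTGCNNAA, the AP-1 motif TGACTCA, the antioxidant-response core TGACNNNGC and the hypoxia-response core ACGTG.

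Steap4, chr5:7960222-7960471, plus strand: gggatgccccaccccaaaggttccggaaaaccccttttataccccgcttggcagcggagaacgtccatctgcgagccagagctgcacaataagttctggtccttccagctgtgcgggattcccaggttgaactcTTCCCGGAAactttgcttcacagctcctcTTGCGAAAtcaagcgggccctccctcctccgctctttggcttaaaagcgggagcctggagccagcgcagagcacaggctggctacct

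Steap1, chr5:5749318-5749567, minus strand: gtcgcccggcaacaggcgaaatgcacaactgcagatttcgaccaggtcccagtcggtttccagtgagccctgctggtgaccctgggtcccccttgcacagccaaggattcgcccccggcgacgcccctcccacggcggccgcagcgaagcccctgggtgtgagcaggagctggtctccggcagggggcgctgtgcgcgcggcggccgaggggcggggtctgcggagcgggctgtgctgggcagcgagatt

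The Steap4 window holds a STAT match starting 116 bases before the start and a C/EBP match 87 bases before it, which do not overlap. The Steap1 window holds no match to the 5 motifs. Of 32851 windows of this length, 7.02% hold the STAT motif, 9.56% the C/EBP motif, 4.46% AP-1, 10.2% the antioxidant-response core and 16.6% the hypoxia-response core. A match is a stretch of letters and was not tested as a binding site. An entry was at hand for 7 of the 10 genes. Among the others, Fth1 held 2 C/EBP matches, Cp held 1 and Tfrc held 1 hypoxia-response core, while Ftl1 and Ireb2 held no match. A C/EBP match was therefore not particular to Steap4.

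The ferritin genes were the brightest of the 10 and differed from saline by at most 0.18 on their brightest probes. Fth1 and Ftl1 encode the heavy and light chains of ferritin, the cell's iron store. Fth1 (mm9 chr19:10059485-10059544) read 9.26 and 9.15 in crocidolite, 9.30 and 9.27 in amosite, 9.38 and 9.20 in chrysotile, and 9.44 and 9.33 in saline. Its differences from saline were -0.18 ± 0.12 for crocidolite, -0.10 ± 0.12 for amosite and -0.10 ± 0.12 for chrysotile (limma adjusted p = 0.79, 1.00 and 0.95), and the 95% interval for crocidolite runs from -0.47 to 0.12. Both pairs were below 0 for each fibre, at -0.18 and -0.18 for crocidolite, -0.14 and -0.05 for amosite, and -0.06 and -0.13 for chrysotile, and the crocidolite and amosite arrays lie below both saline arrays. Centring the arrays on the median instead moves the median of all genes to 0.16 for crocidolite against saline, where Fth1 reads 0.0045. Relative to the median of all genes, Fth1 stands at -0.16 for crocidolite under both scalings and at -0.08 after quantile normalization.

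The brighter Ftl1 probe read 9.31 and 9.28 in crocidolite, 9.41 and 9.27 in amosite, 9.47 and 9.37 in chrysotile, and 9.31 and 9.51 in saline. It is listed on another chromosome (mm9 chr17:6131686-6131745) than the dimmer probe (chr7:52714014-52714495). The listed start of Ftl1 is on chr7 (GRCm38.p6), the chromosome of the dimmer probe. The brighter probe may therefore also read near-identical copies, and its level is uncertain. The dimmer probe read 7.25 and 7.15 in crocidolite, 7.30 and 7.07 in amosite, 7.44 and 7.16 in chrysotile, and 7.05 and 7.08 in saline. Against saline the probes differ in sign for crocidolite (-0.12 on the brighter and 0.13 on the dimmer) and for amosite (-0.07 and 0.12). Each of these values is within its SE or close to it. For chrysotile the brighter probe gave 0.01 ± 0.12 and the dimmer 0.23 ± 0.15, with both arrays above both saline arrays on the dimmer. Relative to the median of all genes, the brighter probe stands at -0.10 for crocidolite under the 75th percentile and under median centring, and at 0.07 after quantile normalization, so its sign is not settled.

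The export list had 3 measured genes, and none passed the adjusted threshold. Slc40a1 encodes ferroportin, the iron exporter, and Cp encodes ceruloplasmin, a copper ferroxidase that loads exported iron onto transferrin. Slc40a1 (mm9 chr1:45965255-45965314) read 2.36 and 2.20 in crocidolite, 2.46 and 1.96 in amosite, 2.19 and 2.04 in chrysotile, and 2.14 and 1.70 in saline. Within each number all fibre arrays are above the saline array, by 0.22 and 0.49 for crocidolite, 0.32 and 0.25 for amosite, and 0.05 and 0.34 for chrysotile. The mean differences were 0.35 ± 0.22, 0.29 ± 0.22 and 0.19 ± 0.22 for these fibres, with limma adjusted p of 0.77, 1.00 and 0.95. Without saline replicate 2 the chrysotile difference of Slc40a1 was -0.025.

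Cp (mm9 chr3:19889071-19889130) read 4.13 and 4.25 in crocidolite, 3.85 and 4.04 in amosite, 3.82 and 4.55 in chrysotile, and 3.50 and 3.90 in saline. Crocidolite does not overlap saline, while amosite and chrysotile do. The difference was 0.49 ± 0.27 for crocidolite, 0.25 ± 0.27 for amosite and 0.49 ± 0.27 for chrysotile (limma adjusted p = 0.74, 1.00 and 0.91). A dimmer Cp probe (chr3:19907511-19907570) gave 0.24, 0.16 and 0.25 ± 0.16 in the same order, the same sign as the brighter one.

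Heph, which encodes hephaestin, a membrane ferroxidase, is the other measured export gene. It read 3.80 and 3.97 in crocidolite, 3.62 and 3.82 in amosite, 3.59 and 3.71 in chrysotile, and 3.73 and 3.93 in saline. The chrysotile arrays lie below both saline arrays, and the other fibres overlap saline. The difference was 0.06 ± 0.14 for crocidolite, -0.11 ± 0.14 for amosite and -0.18 ± 0.14 for chrysotile (limma adjusted p = 0.95, 1.00 and 0.93).

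Ireb2 encodes iron regulatory protein 2, which binds the stem-loops of the receptor and ferritin messages. Its probe (mm9 chr9:54756566-54756625) read -2.04 and -2.11 in crocidolite, -2.30 and -2.18 in amosite, -1.97 and -2.18 in chrysotile, and -2.05 and -2.17 in saline. The amosite mean is the lowest, at -0.13 ± 0.13 from saline, and crocidolite and chrysotile each differ from saline by 0.03 ± 0.13, with limma adjusted p of 1.00, 0.97 and 0.99. Replicate 2 of amosite (-2.1835) is barely below replicate 2 of chrysotile (-2.1827) and of saline (-2.1677).

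**Figure D4:**
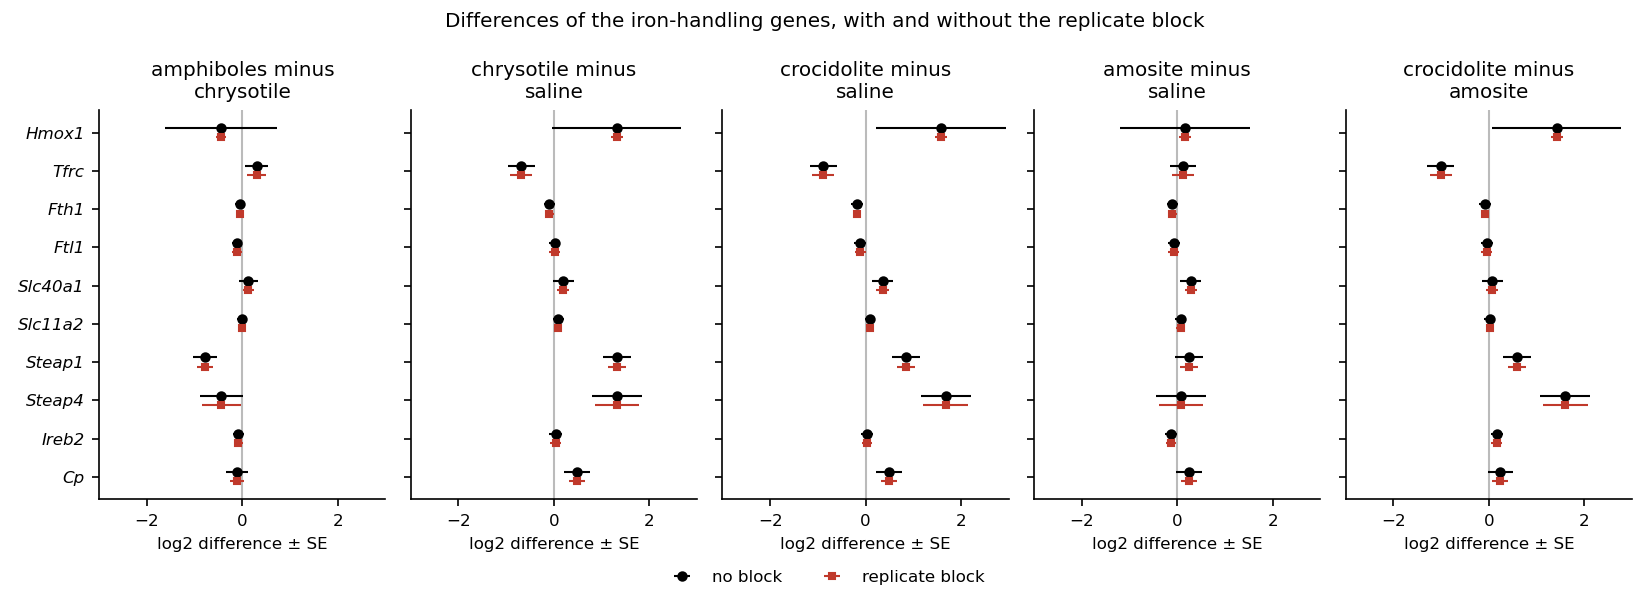
Log2 difference ± SE (x axis) of the 10 genes (y axis) in the 5 comparisons, from the limma fit without the block (black circles) and with the replicate block (red squares). The SE of Hmox1 against saline shrinks from 1.35 to 0.13 with the block. Amosite minus saline stays within 0.29 of 0 for every gene.

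Counted over the 10 genes, the amphiboles lay below chrysotile without overlap only for Steap1, which was also the only gene with an unadjusted limma p under 0.05. Over all genes tested 4.9% lay lower without overlap and 1.86% were lower at that p, and 3.9% and 0.92% were higher, where none of the 10 was. The median difference of the 10 genes was -0.09, beside -0.01 for all genes.

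Crocidolite arrays lay above both saline arrays for 5 of the 10 genes (Slc40a1, Slc11a2, Steap1, Steap4 and Cp, background 14.6%). They lay below both for 3 (Tfrc, Fth1 and Ftl1, background 19.9%). These counts use the brightest probes. On the dimmer probes Slc11a2 lay below both saline arrays and Ftl1 above both. At an unadjusted limma p under 0.05, 2 were higher (Steap1 and Steap4, background 2.85%) and 1 was lower (Tfrc, background 4.41%). Both pairs ran the same way for all 10 genes, where 57.1% of all genes did so. Some of these pair differences were very small, such as -0.0033 for Ftl1, 0.013 for Ireb2 and 0.019 for Slc11a2. The same-direction count was 8 for amosite (background 44.1%) and 8 for chrysotile (50.2%) against saline. It was 4 for amphiboles against chrysotile (54.8%) and 7 for crocidolite against amosite (68%). With chrysotile against saline the same kind of count gave 2 genes higher without overlap (Steap1 and Steap4, background 14.3%) and 1 lower (Tfrc, background 15.3%), and these 3 were also those at an unadjusted p under 0.05 (background 2.83% higher and 2.64% lower).

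Amosite gave 0 genes at an unadjusted limma p under 0.05 against saline, where 1.09% of all genes were higher and 1.58% lower, and 2 that lay lower without overlap (Fth1 and Ireb2, background 12.9%), with none higher (8.23%). Between the amphiboles, crocidolite lay above amosite without overlap for 4 genes (Steap1, Steap4, Ireb2 and Cp, background 17.5%) and below it for 2 (Tfrc and Fth1, background 20.3%). Steap4 (higher, background 2.46%) and Tfrc (lower, background 2.65%) were at an unadjusted limma p under 0.05 there. With the replicate block, the genes at an unadjusted p under 0.05 numbered 2 of the 10 for amphiboles against chrysotile (background 5.02%), 6 for crocidolite (13.4%), 0 for amosite (4.54%) and 5 for chrysotile (10.5%) against saline, and 4 for crocidolite against amosite (10%), and 0 passed the adjusted threshold. The 3 fibre comparisons share their saline arrays and are not independent of each other. The median differences from saline of the 10 genes were 0.22 for crocidolite, 0.10 for amosite and 0.14 for chrysotile, beside -0.02, -0.02 and -0.01 for all genes.

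Around the 10 genes, 7 lists of iron and heme genes hold 72 genes, of which 64 were measured and 54 are not among the 10. No gene of these lists passed the adjusted threshold in limma in any comparison. For crocidolite against saline 7 of the 64 were higher (background 2.85%) and 4 lower (background 4.41%) at an unadjusted limma p under 0.05. Amosite gave 0 higher (1.09%) and 0 lower (1.58%), and chrysotile 5 higher (2.83%) and 2 lower (2.64%). With the replicate block the counts were 11 higher (5.62%) and 6 lower (7.74%) for crocidolite, 0 higher (1.75%) and 1 lower (Aco1, 2.79%) for amosite, and 8 higher (5.53%) and 3 lower (4.95%) for chrysotile. Of the 64 genes, 62 were above background on all 8 arrays. The other two, Flvcr2 and Ftmt, are among the 4 lower with crocidolite, beside Tfrc and Aco1. Ftmt, the mitochondrial ferritin, passed the filter through its saline arrays alone, where it is high, so its difference is given as a description only. The median of the 64 was 0.03 for crocidolite, 0.02 for amosite and 0.02 for chrysotile, near the medians of all genes given above.

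Iron uptake was the list with the most such genes: of 14 measured, 5 were higher and 1 lower with crocidolite, 0 and 0 with amosite, and 4 and 1 with chrysotile, against the background shares above. Tfrc, Steap1 and Steap4 are among the 10 and account for 3 of the 6 genes with crocidolite and 3 of the 5 with chrysotile. The others were Lcn2 and Steap2 in both, and Slc39a14 with crocidolite. With the replicate block, crocidolite gave 6 and 1, amosite 0 and 0, and chrysotile 4 and 2. Lcn2, a secreted lipocalin that binds iron-loaded siderophores, read 1.42 and 1.17 in crocidolite, -0.56 and -1.42 in amosite, 0.20 and 2.19 in chrysotile, and -1.09 and -1.35 in saline. It has the pattern of Steap4, with crocidolite arrays high and amosite arrays at the saline level. The crocidolite difference from saline was 2.52 ± 0.63 (limma adjusted p = 0.56), amosite gave 0.23 ± 0.63 (1.00) and chrysotile 2.41 ± 0.63 (0.89).

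In the storage and release list (9 measured), Bdh2, a cytosolic dehydrogenase proposed to make a mammalian siderophore, read 1.33 and 1.10 in crocidolite, 0.92 and 0.57 in amosite, 1.19 and 1.39 in chrysotile, and 0.53 and 0.51 in saline. All fibre arrays are above both saline arrays, by 0.69 ± 0.17 for crocidolite, 0.22 ± 0.17 for amosite and 0.77 ± 0.17 for chrysotile (limma adjusted p = 0.56, 1.00 and 0.88). Among the regulators (7 measured), Aco1, which encodes iron regulatory protein 1, the cytosolic aconitase, was lower than saline by -0.53 ± 0.17 in crocidolite, -0.29 ± 0.17 in amosite and -0.50 ± 0.17 in chrysotile (limma adjusted p = 0.63, 1.00 and 0.90). Its arrays read -2.66 and -2.37 in crocidolite, -2.42 and -2.11 in amosite, -2.59 and -2.38 in chrysotile, and -2.04 and -1.93 in saline, with no fibre array reaching the saline arrays.

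Heme handling (12 measured) held the widest single difference. Hp, which encodes haptoglobin, the plasma binder of free hemoglobin, read 8.14 and 8.96 in crocidolite, 4.44 and 5.93 in amosite, 5.44 and 9.33 in chrysotile, and 4.15 and 5.89 in saline. It exceeded saline by 3.53 ± 1.30 in crocidolite (limma adjusted p = 0.67), 0.16 ± 1.30 in amosite and 2.37 ± 1.30 in chrysotile. Flvcr2, a membrane transporter, was not well above background on either crocidolite array and read -3.89 and -4.34 in amosite, -3.93 on the first chrysotile array, and -3.72 and -3.63 in saline, and the second chrysotile array was not well above background. The heme synthesis (8 measured) and iron-sulfur lists (11 measured) had no gene at an unadjusted p under 0.05 against saline, and the iron-sulfur medians were -0.04 for crocidolite, 0.02 for amosite and -0.02 for chrysotile. The list of NRF2 and BACH1 targets (19 of 20 measured) includes Hmox1, Fth1 and Ftl1. Its medians were 0.02 for crocidolite, 0.09 for amosite and -0.02 for chrysotile. It held 1 gene at an unadjusted limma p under 0.05 against saline, higher with crocidolite (background 2.85%). This was Gclm, the modifier subunit of glutamate-cysteine ligase, at 0.37 ± 0.13 (limma adjusted p = 0.66).

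**Figure D5:**
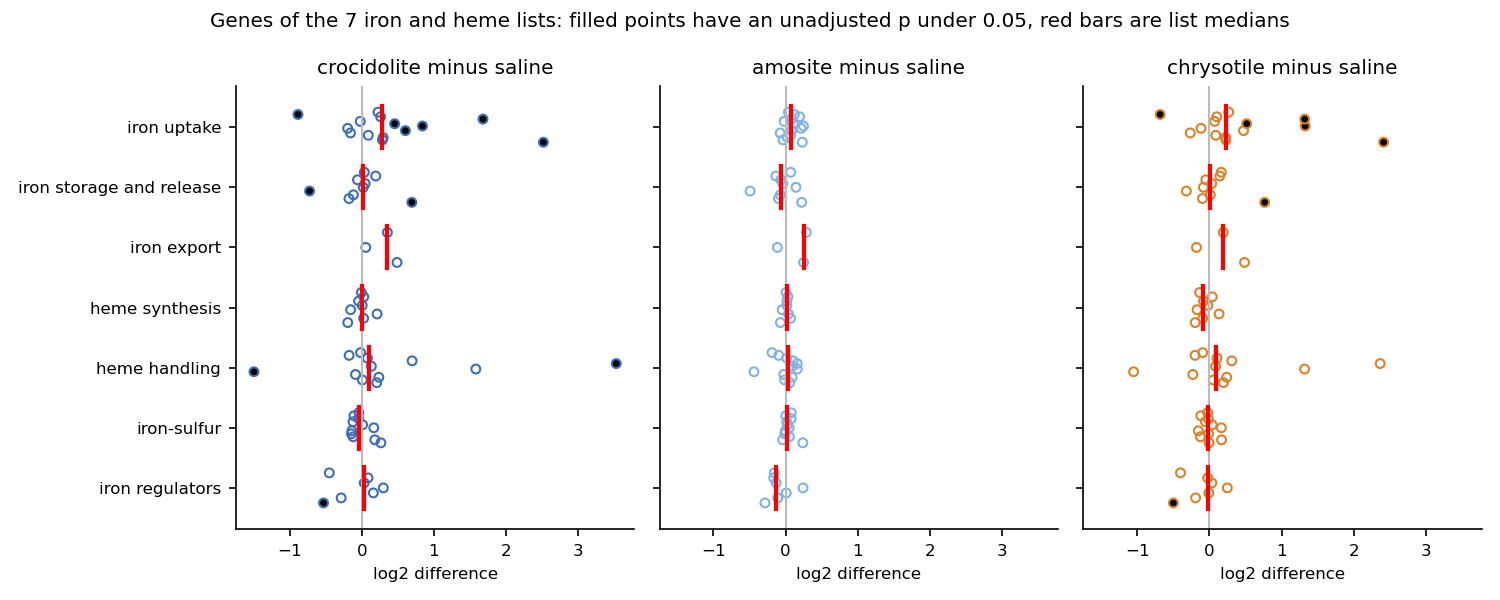
Log2 difference (x axis) from saline of every measured gene of the 7 iron and heme lists (y axis), for crocidolite, amosite and chrysotile. Each point is a gene, filled where the unadjusted limma p is under 0.05, and red bars are list medians. Filled points number 11 for crocidolite, 0 for amosite and 7 for chrysotile.

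Among genes with a symbol whose 4 group means span at least 0.5 of the member's span, those closest to Hmox1 over the 8 arrays were Ncan (Pearson r = 0.960), Wdr86 (0.960), Gngt2 (0.959), Clic1 (0.957) and Il2ra (0.951), of 1084 candidates. All 5 also had a higher mean on the replicate 2 arrays, by 0.83 to 1.68, so the likeness includes the replicate gap. Closest to Tfrc were Coq8a (0.994), St3gal6 (0.985), Lix1 (0.980), Ube2c (0.976) and Opn3 (0.975), of 2570 candidates. Coq8a averaged 2.26 in crocidolite, 3.30 in amosite, 2.52 in chrysotile and 3.15 in saline, the same order of groups as Tfrc. These genes were picked for their likeness over arrays of 1 slide, and the values are a description.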

How the data were processed

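Cy3-labelled RNA of 8 samples was measured on Agilent 1-colour arrays. Per the file headers and the submitters' processing notes, spots were read with Agilent Feature Extraction (10.7 in the notes), and the deposited processed intensity of each spot is background-subtracted, on a linear scale, with probe positions on mm9. The deposited value tables hold the same intensities, as checked. Each array held 55681 probes, of which 56.2% to 62.8% cleared the background, and its 75th percentile of intensity was between 340.1 and 453.4. All arrays share 1 slide and 1 scan. The first index of the slide position equals the replicate number, and the second follows the group.

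Here, control probes and outlier spots were dropped, the remaining spots averaged per probe, and log2 intensities centred on the 75th percentile. Probes well above background on both arrays of at least 1 group passed (33042). The brightest probe stood for a gene, giving 23052 genes, 15137 with a symbol. Symbols of 26762 probes were matched by accession to RefSeq, and the others kept the file's name. Comparisons were fitted in 1 limma model of the 4 groups (lmFit and eBayes, 4 residual and 2.22 prior degrees of freedom). The software was R 4.3.3, limma 3.58.1, the data.table package (1.17.8), Python 3.11.15 and matplotlib 3.10.9. The fit was tested on simulated data.

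Deviations of same-numbered arrays from their group means correlated at 0.25 to 0.46 in all 6 pairs of groups. A first component with 32.3% of the variance put the numbers apart. The numbers, which come from the sample titles, were therefore taken as pairs, and the block is printed where it changes a count.

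Named genes are the 10 and all their probes, up to 2 genes per list and comparison with the smallest p (not all are printed), and the 5 genes most like Hmox1 and Tfrc. The 10 genes, the lists and the markers were chosen with earlier results of these data known, so no list supports its own direction. Alternatives covered centring, quantile normalization, normexp background correction with an offset of 50, the filter, the choice of probe, the replicate block and leaving out each array. The dimmer probes of Tfrc, Ftl1, Slc11a2 and Cp were not among them and are given with those genes.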

Additional observations from a re-analysis of the deposited data

How the results depend on the processing

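Of 960 values of the 10 genes under alternatives, 916 kept the sign of the 50 values given and 44 did not. Part of the 916 could not turn. The replicate block, the prior and the filter leave the difference of a member as it is. Leaving out an array of a group outside the comparison does so too. The share that kept its sign is therefore no measure of robustness. The dimmer probes of Tfrc, Ftl1, Slc11a2 and Cp are not among these values. On them Slc11a2 (every fibre) and Ftl1 (crocidolite and amosite) had the other sign against saline. Of the 960 values, 2 passed the adjusted threshold. Both were for Hmox1 in the fit added after seeing the data with the replicate block and a trended, robust prior. The replicate block alone called 0 genes in each comparison and changed no call, but counted 1158, 2416, 3081, 1047 and 2306 genes at an unadjusted p under 0.05 for amphiboles against chrysotile, chrysotile, crocidolite and amosite against saline, and crocidolite against amosite, where the fit without it had 641, 1260, 1675, 616 and 1179. The genes called, 0 in all comparisons, became 1 for amphiboles against chrysotile, 2 for chrysotile, 1 for crocidolite and 2 for amosite against saline with median centring; 3, 2 and 2 for chrysotile, crocidolite and amosite with quantile normalization; and 6 for chrysotile and 1 for crocidolite with the block and that prior. Leaving out 1 array gave 0 to 1 for amphiboles against chrysotile, 0 to 67 for chrysotile, 0 to 51 for crocidolite and 0 to 58 for amosite against saline, each of the last 3 highest without saline replicate 2.

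Signs turned for Hmox1 and Steap4 in some comparisons, and otherwise only for differences of at most 0.25. For amphiboles against chrysotile, Fth1 became 0.035 with quantile normalization and 0.034 with median centring, and Slc11a2 0.000347 with normexp and 0.067 with median centring. Against saline, normexp gave Ireb2 -0.092 for chrysotile and -0.11 for crocidolite, and Steap4 -0.045 for amosite; median centring gave Fth1 0.0045 and Ftl1 0.066 for crocidolite; quantile normalization gave Ftl1 0.064 for crocidolite and 0.073 for amosite. For crocidolite against amosite, median centring gave Fth1 0.044 and Ftl1 0.081, and quantile normalization Slc11a2 -0.018. Median centring differs from the 75th percentile by 1 shift shared by all genes of a comparison, which makes its sign turns by construction. The causes of the others were not tested. With 1 array left out, amphiboles against chrysotile ran from -1.74 to 0.85 for Hmox1, -0.13 to 0.049 for Fth1, -0.059 to 0.041 for Slc11a2, -1.31 to 0.43 for Steap4, -0.19 to 0.024 for Ireb2 and -0.48 to 0.25 for Cp. Chrysotile against saline ran from -0.088 to 0.11 for Ftl1, -0.025 to 0.41 for Slc40a1 and -0.073 to 0.14 for Ireb2, and crocidolite against saline from -0.024 to 0.091 for Ireb2. Amosite against saline ran from -0.99 to 1.31 for Hmox1, -0.15 to 0.40 for Tfrc, -0.17 to 0.026 for Ftl1, -0.15 to 0.64 for Steap1 and -0.13 to 0.29 for Steap4. Crocidolite against amosite ran from -0.11 to 0.026 for Ftl1, -0.18 to 0.32 for Slc40a1 and -0.034 to 0.075 for Slc11a2. A lone array left in a group is assumed to vary like the other groups. The slide as a block was not run, since all arrays share 1 slide.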
